A study of Mus musculus with 8 samples.

Results

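The angiopoietin and Tie genes are a small signalling system of the vascular lining, and 5 of its genes were followed in the atrioventricular canal of the mouse heart. They were found as every probe set whose annotation gives 1 gene symbol among Tek, Tie1, Angpt1, Angpt2 and Ptprb, which gave 9 of the 45101 probe sets of the array. The array names 18194 genes in this way. The family was chosen on the mutant-against-control changes of these same arrays, Tek being among the probe sets past the threshold, so the members' changes and calls are given as a description and support nothing.

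Tek encodes Tie2, the receptor tyrosine kinase to which the angiopoietins bind, and Tie1 encodes a related receptor that forms complexes with Tie2. Angiopoietin 1 activates Tie2, and in the developing mouse heart it comes largely from the myocardium and acts on the endocardium. Angiopoietin 2, made by endothelial cells, blocks or weakly activates Tie2 according to context. Ptprb encodes VE-PTP, an endothelial phosphatase that removes phosphate from Tie2 and also associates with VE-cadherin. The Tie2 promoter is itself a tool in this study, because it drives the Cre transgene T2Cre.

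The mutant group (Gata4T2del) was Gata4flox/flox with T2Cre, so that Gata4 is deleted in endothelium and in the cushion mesenchyme derived from it. The control group was Gata4flox/flox, and no Cre appears in its label. An effect of the Cre transgene itself therefore cannot be told apart from that of the deletion. All mice were of a mixed C57BL6/129 background, and no age is stated for them. Each group had 4 arrays, and each array held RNA of 1 pool of 10 microdissected canals, amplified from 50 ng. Tie2-driven Cre is also known to act in blood cells, and the myocardium of the canal keeps its Gata4.

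The canal is a mixed tissue, so fewer cells of a type and less RNA per cell cannot be told apart in any value below. The 2 control arrays numbered 2 and 3 stood apart. The signal a probe set had to exceed to count as above background was taken per array from 27 probe sets for bacterial RNAs, at their 90th percentile, and was 21.4 to 65.4 on the mutant arrays, against 97.5 and 51.1 on controls 1 and 4 and 316 and 270 on controls 2 and 3. The submitters mention 2 noisy controls that they excluded, without naming them, and the deposited table holds 4, so all were kept and results are given without controls 2 and 3 where that matters. Gata4 had log2 values of 10.93 to 11.28 on mutant arrays and 11.07 to 11.42 on control arrays on its brighter probe set (change -0.15, SE 0.11, adjusted p = 0.585). A dimmer one, above background on 4 mutant and 2 control arrays, averaged 7.81 ± 0.11 in mutants and 6.32 ± 1.47 in controls (SD, n = 4 each; change 0.98, SE 0.45, adjusted p = 0.387). Where they lie relative to the deleted part is not given, so neither checks the deletion.

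The RefSeq promoter table (GRCm38.p6) holds windows for both receptors, which are shown because the Tek promoter drives Cre and Tie1 is the closest relative of Tek among the members. Each window is the 250 bases before the annotated start. The last 203 bases of the Tek window fall inside the span of the annotated gene and are not printed. Capitals mark matches to an ETS motif, searched on both strands as CAGGAA or CCGGAA and as ACGGAA or GAGGAA.
Tek, chr4:94739039-94739085, plus strand: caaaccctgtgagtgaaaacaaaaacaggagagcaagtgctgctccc
Tie1, chr4:118489850-118490099, minus strand: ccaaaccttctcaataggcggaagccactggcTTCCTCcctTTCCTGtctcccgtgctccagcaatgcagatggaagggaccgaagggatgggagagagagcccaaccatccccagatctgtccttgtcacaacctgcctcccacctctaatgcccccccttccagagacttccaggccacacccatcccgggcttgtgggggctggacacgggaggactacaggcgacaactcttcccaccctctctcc
Tie1 had 2 ETS matches, at bases 33 to 38 and 42 to 47 of the window. Tek had 2, at bases 162 to 167 and 192 to 197, outside the printed stretch. Such a match occurred in 52.5% of the 32851 promoter windows of this length. A GATA motif, searched on both strands as AGATAA or AGATAG and as TGATAA or TGATAG, matched neither window, against 26.5% of all windows. With no GATA match in either window, no overlap with the ETS matches could occur. A match is only a match of letters.

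Of the 9 probe sets, 8 passed the filter on low values. Mutant and control arrays were compared over all 27023 tested probe sets with limma, with a threshold of 0.05 on the Benjamini-Hochberg adjusted p. Of the 8, 1 was called, the Tek probe set, as lower. Over all tested probe sets 0.0444% were called, 0.0185% lower and 0.0259% higher, and nothing is read from the members' count because this contrast chose them. The groups did not overlap for 3 of the 8, 1 lower and 2 higher, against 7.63% of all tested probe sets, 3.19% lower and 4.44% higher. Changes below are mutant minus control on the scale log2(signal + 16) after quantile normalization, and over all probe sets tested the changes had a median of 0.03. Levels of different probe sets are not set against each other, since brightness depends on the probes.

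**Figure D1:**
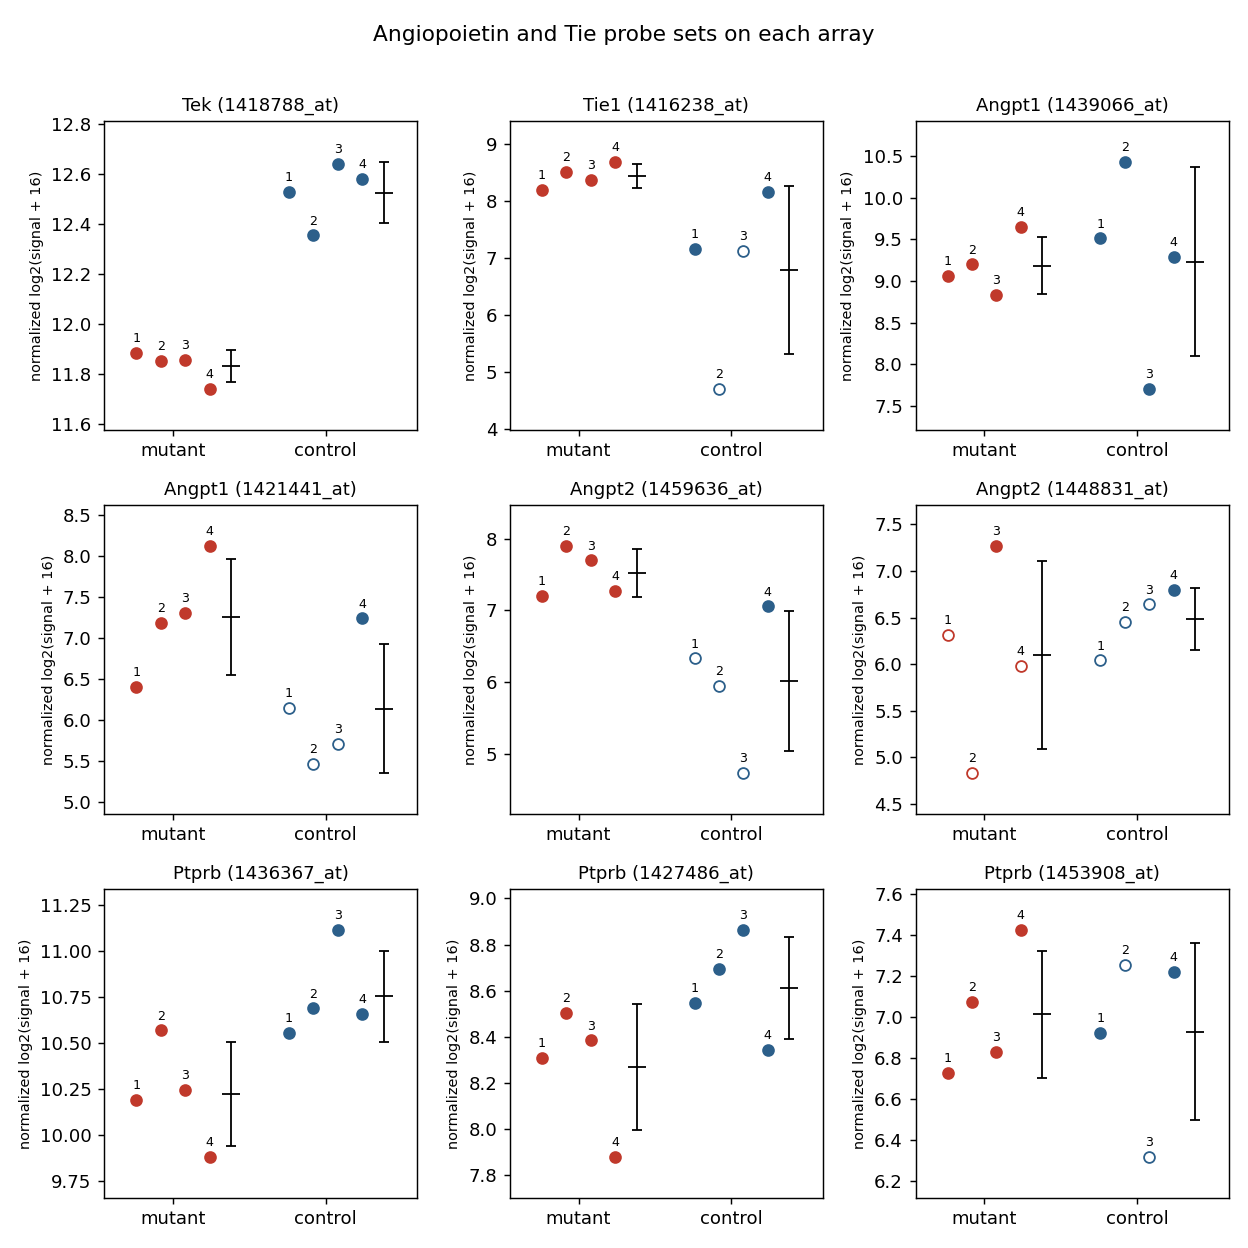
Normalized log2(signal + 16) of each of the 9 probe sets on each array, mutants in red on the left and controls in blue on the right, with replicate numbers. Filled points were above background and open points were not, and the black bars are mean and SD over the 4 arrays of a group. Tek has no overlap between groups, Tie1 and the brighter Angpt2 probe set barely separate, and open points lie mostly on control arrays.

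Tek, the angiopoietin receptor, was lower on every mutant array than on every control array. Its log2 values were 11.89, 11.85, 11.86 and 11.74 in mutants 1 to 4, against 12.53, 12.35, 12.64 and 12.58 in controls 1 to 4. The groups were separated by a gap of 0.47, and control 2 was the lowest and control 3 the highest of the controls. In the deposited signals the mutant arrays held 3901, 3992, 3971 and 3570, against 6059, 4362, 5448 and 6393 on the controls. The groups did not overlap on that scale either. The probe set averaged 11.83 ± 0.06 in mutants and 12.53 ± 0.12 in controls (SD, n = 4 each), and its fitted change was -0.72 (SE 0.07), 1.64-fold higher in controls than in mutants.

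The size of the Tek change was moderate among all tested probe sets, 5.47% of which had a lower change, while its SE of 0.07 was small beside the median SE of 0.28. With controls 2 and 3 left out and no array weights the Tek change was -0.72, and on the authors' own scaling it was -0.62. Tek was called lower in 18 of 19 alternatives, with a range of -0.74 to -0.62. The remaining alternative centred arrays on their medians, which shifted the changes of all probe sets to a median of 1.13. There the Tek change was 0.97 and was called higher, and it lay at -0.17 once that shift was taken off.

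Tie1, the partner receptor of Tie2, had higher values on mutant arrays, but its control arrays were dim and spread. Its log2 values were 8.20, 8.50, 8.37 and 8.68 in mutants 1 to 4, against 7.16, 4.71, 7.13 and 8.15 in controls 1 to 4. The groups were separated by only 0.05, the distance between mutant 1 and control 4. The probe set was above background on all 4 mutant arrays and on controls 1 and 4 alone. In deposited signals, control 3 (262) lay above mutants 1 and 2 (257 and 255) and below mutants 3 and 4 (286 and 360), so on that scale the groups overlapped.

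Tie1 averaged 8.44 ± 0.21 in mutants and 6.79 ± 1.46 in controls (SD, n = 4 each), with a fitted change of 1.26 (SE 0.39) that was not called. Without controls 2 and 3 it was 0.89 (SE 0.31), also not called. The size followed the choice of controls: it was 1.89 without control 1 and 2.10 without control 4, both called, and 1.03 without control 2. The fits without control 1 or 4 called 1416 and 1291 of all tested probe sets higher, against 7 in the fit reported. The Tie1 change was positive in every one of the 19 alternatives. The background threshold moved with this result, being highest on the 2 control arrays where Tie1 was not above it, and its part in the size was not tested.

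**Figure D2:**
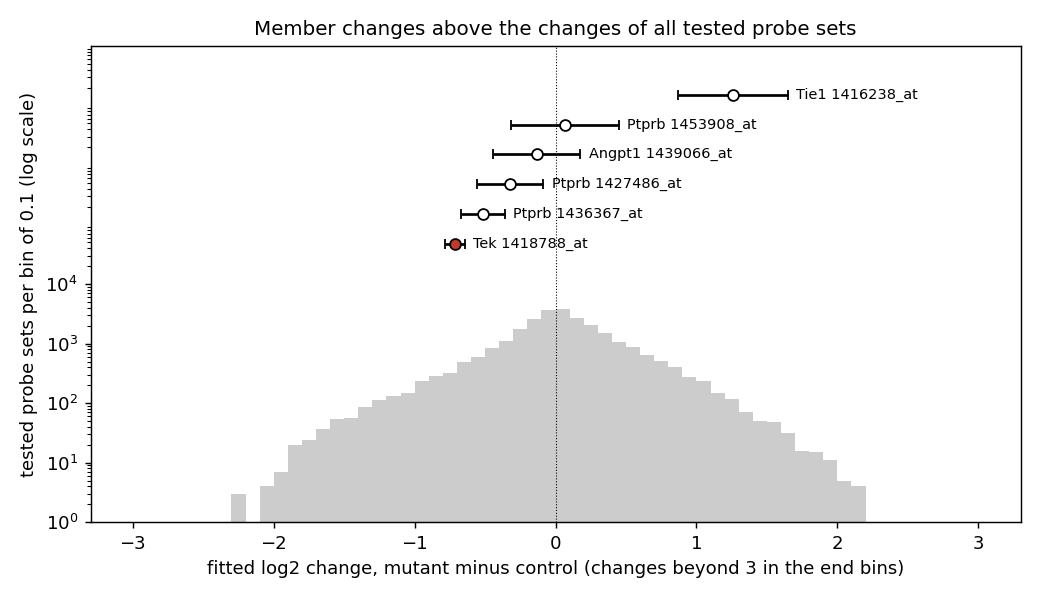
Fitted log2 changes (mutant minus control) of the 6 member probe sets that were above background on at least 2 arrays of each group, drawn as points with their SE above a histogram of the changes of all 27023 tested probe sets on a log count axis. The filled point, Tek at -0.72, was called. The open points, from Ptprb at -0.51 to Tie1 at 1.26, were not. With median-centred arrays all 6 changes were above 0.

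Angpt1, the activating ligand, had a bright probe set that did not separate the groups. On 1439066_at the log2 values were 9.06, 9.20, 8.83 and 9.65 in mutants 1 to 4, against 9.51, 10.43, 7.70 and 9.29 in controls 1 to 4. The highest and the lowest value both belonged to controls, namely the 2 arrays of raised background. The mutant mean was 9.19 ± 0.34 and the control mean 9.23 ± 1.13 (SD, n = 4 each), and the change was -0.13 (SE 0.31), not called. Its direction turned to 0.33 without control 1, 0.10 without control 4 and 0.05 without mutant 3, and with median-centred arrays it was 0.38 above the shift of all probe sets, so no direction is given for Angpt1.

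The second Angpt1 probe set, 1421441_at, was dim. Its log2 values were 6.40, 7.19, 7.31 and 8.13 in mutants 1 to 4, against 6.14, 5.46, 5.71 and 7.24 in controls 1 to 4. It was above background on all 4 mutant arrays and on control 4 only. A change is sized only where at least 2 arrays of each group were above background, so none is given here. The groups overlapped, control 4 lying above mutants 1 and 2.

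Angpt2, the context-dependent ligand, was measured above background on every mutant array by its brighter probe set and on few arrays by the other. The brighter, 1459636_at, had log2 values of 7.21, 7.90, 7.70 and 7.27 in mutants 1 to 4, against 6.33, 5.95, 4.74 and 7.06 in controls 1 to 4. The values did not overlap. All 4 mutant arrays were above background, but only control 4 was among the controls, so no size is given. In deposited signals the mutant arrays held 124, 154, 147 and 91.1 and the control arrays 72.6, 107, 38.5 and 82.2, and control 2 then lay above mutant 4. The probe set was not called, and it was called higher in 3 of 19 alternatives, namely with median-centred arrays, without control 4, and without controls 1 and 4. Over all tested probe sets those fits called 17318, 1291 and 4197 higher, so nothing is read from these calls.

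The other Angpt2 probe set, 1448831_at, was removed by the filter on low values. Its log2 values were 6.31, 4.83, 7.27 and 5.98 in mutants 1 to 4, against 6.04, 6.45, 6.64 and 6.80 in controls 1 to 4. It was above background only on mutant 3 and control 4. The groups overlapped.

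Ptprb, the phosphatase that acts on Tie2, had values that leaned lower in mutants on its brightest probe set. On 1436367_at the log2 values were 10.19, 10.57, 10.25 and 9.88 in mutants 1 to 4, against 10.55, 10.69, 11.12 and 10.66 in controls 1 to 4. Mutant 2 lay just above control 1, and the other 3 mutants lay below every control. The means were 10.22 ± 0.28 in mutants and 10.75 ± 0.25 in controls (SD, n = 4 each), and the change of -0.51 (SE 0.15) was not called.

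Leaving out control 1 gave a called Ptprb change of -0.73, and leaving out controls 2 and 3 without array weights gave -0.41, not called. The fit without control 1 called 262 of all tested probe sets lower, against 5 in the fit reported. The Ptprb change was negative in 18 of 19 alternatives. With median-centred arrays it was 0.76 and called higher, and it lay at -0.38 once the shift of all probe sets was taken off.

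The other 2 Ptprb probe sets were dimmer and did not separate the groups. The probe set 1427486_at had 8.31, 8.51, 8.38 and 7.88 in mutants 1 to 4, against 8.55, 8.70, 8.86 and 8.34 in controls 1 to 4, a change of -0.32 (SE 0.24). The dimmest, 1453908_at, was above background on 4 mutant and 2 control arrays, with 6.72 to 7.42 in mutants and 6.32 to 7.25 in controls. Its change was 0.07 (SE 0.38), and -0.53 on the authors' scaling. Neither was called. The 3 probe sets of Ptprb did not share a sign in the fit reported, where the dimmest lay near 0 beside its SE. The dimmest was negative in 4 of 19 alternatives. On the authors' scaling the 3 changes were -0.47, -0.60 and -0.53.

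**Figure D3:**
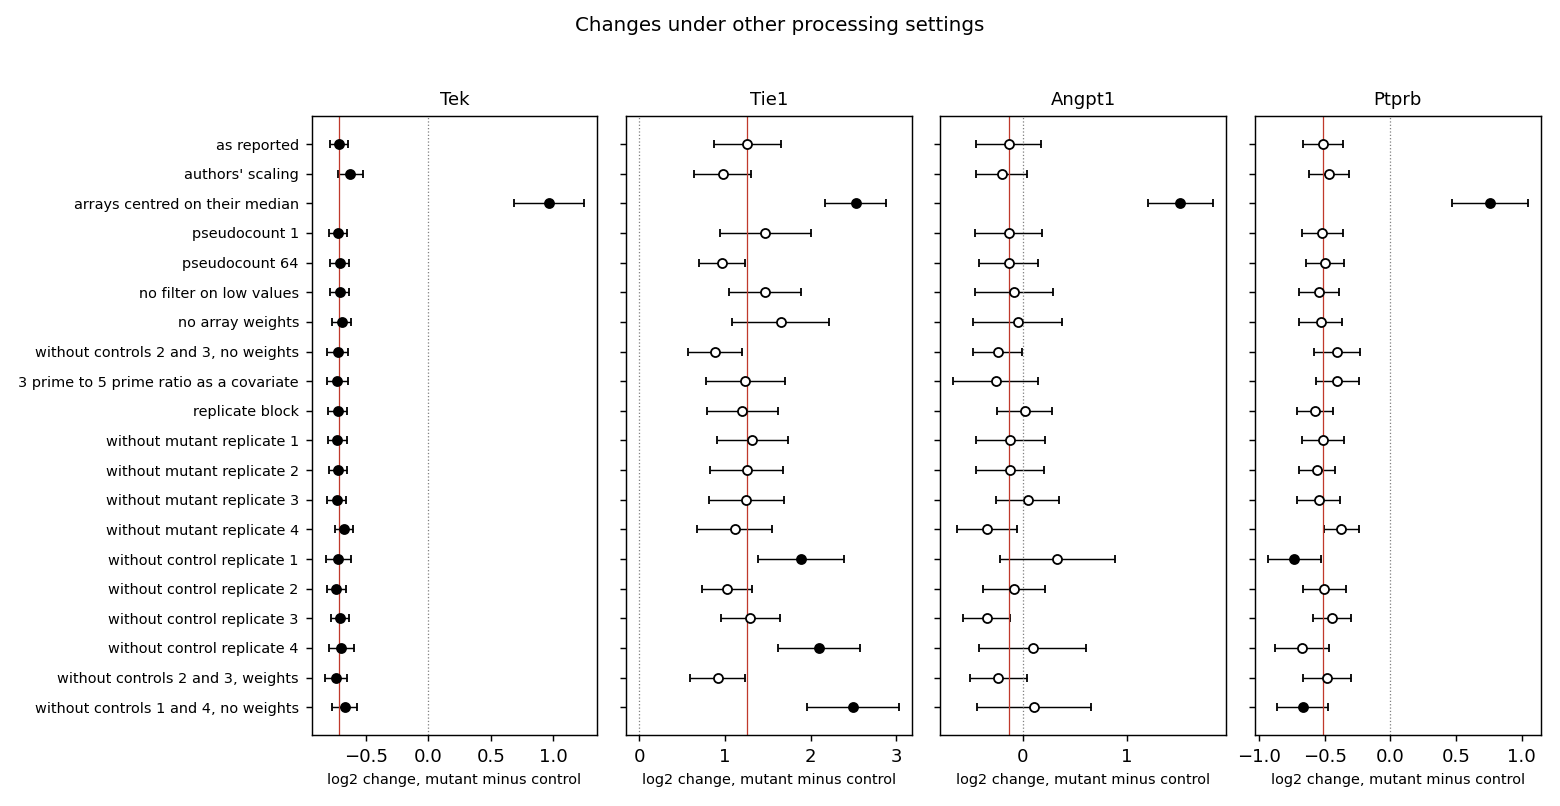
Fitted log2 change (mutant minus control, with SE) of the brightest probe set of Tek, Tie1, Angpt1 and Ptprb in the fit reported, at the top, and under 19 alternatives. Filled points had an adjusted p under 0.05, the red line is the reported change and the dotted line is 0. Tek is called throughout and positive only with median-centred arrays, while Tie1, Angpt1 and Ptprb move with the control arrays kept.

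Differences between members were also taken within each array, and only their contrast between groups is read. Tie1 minus Tek was -3.40 ± 0.26 in mutants and -5.74 ± 1.36 in controls (SD, n = 4 each), a difference of 2.34 that was 1.50 without controls 2 and 3. Ptprb minus Tek was -1.61 ± 0.24 in mutants and -1.77 ± 0.21 in controls, a difference of 0.16 that was 0.34 without controls 2 and 3. Over the 8 arrays Tek and Ptprb had Pearson r = 0.82 and Spearman rho = 0.74, but r was 0.54 once each group's mean was subtracted. Tek and Tie1 had r = -0.53 over the arrays and 0.70 after that subtraction, and Tek and Angpt1 had -0.18 and -0.88. Tek and the brighter Angpt2 probe set had -0.77 over the arrays and -0.14 after it. Over the 10 pairs of members, the values after subtraction ran between these -0.88 and 0.70. These arrays share the group difference and the raised background of controls 2 and 3, so the correlations are descriptive.

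Tek was also compared with other endothelial genes of the same arrays, since it is itself an endothelial marker. A list of 27 endothelial and endocardial genes without the members had 25 tested on their brightest probe set. Of these 19 had positive and 6 negative changes, with a median of 0.38 against 0.03 for all tested probe sets, and 0 were called. At an unadjusted p under 0.05, 11 were higher and 3 lower, against 7.3% and 5.34% of all tested probe sets. The defining markers did not pass: VE-cadherin Cdh5 had a change of -0.19 (SE 0.39, adjusted p = 0.867), Pecam1 one of 0.53 (SE 0.32, adjusted p = 0.489), and the VEGF receptors Kdr and Flt1 had 0.28 (SE 0.15, adjusted p = 0.428) and 0.10 (SE 0.08, adjusted p = 0.624). The 3 dimmer Flt1 probe sets had changes of -0.23 to -0.09, opposite in sign to the brightest. Cdh5 had 0.064 when controls 2 and 3 were dropped. It was called lower at -1.40 (adjusted p = 0.0395) when controls 1 and 4 were. The list's count of calls also moved with the arrays kept. It was 6 higher without control 1 or control 4, and 8 higher and 3 lower without both. There was 1 higher without control 3, on the authors' scaling or with the replicate block, and 1 lower without mutant 3. With median-centred arrays 23 were called higher, and without controls 2 and 3, 0 were called. Over all tested probe sets 1416 and 1291 were higher without control 1 or 4. There were 4197 higher and 2278 lower without both, and 17318 higher with median-centred arrays.

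The smallest p values of the list belonged to the lectin-like Clec14a (1.70, SE 0.38, adjusted p = 0.146), the SOX factor Sox7 (0.89, SE 0.20, adjusted p = 0.153) and the surface glycoprotein Cd93 (-0.35, SE 0.10, adjusted p = 0.241), and none passed. Clec14a was above background on 2 control arrays, and it was called higher in 5 of 19 alternatives, at 2.91, 1.35 and 2.55 without control 1, 3 or 4, 2.81 without controls 1 and 4 and 3.56 with median-centred arrays. Sox7 was called higher in 6, at 1.49 and 1.40 without control 1 or 4, 1.66 without both, 0.84 on the authors' scaling, 0.98 with the replicate block and 2.71 with median-centred arrays. Over all tested probe sets those 6 fits called 1416, 1291, 4197, 41, 23 and 17318 higher. Cd93 was called lower at -0.46 without mutant 3, and with median-centred arrays its change was 1.34.

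The mean of the 25 genes was 9.21, 9.21, 9.34 and 9.25 in mutants 1 to 4, against 8.92, 8.65, 8.35 and 8.92 in controls 1 to 4. Controls 2 and 3 had the lowest values. Over the brighter 13 of the list, split by mean over all arrays after the data were seen, the mean was 10.36 ± 0.04 in mutants and 10.08 ± 0.17 in controls (SD, n = 4 each). This mean was not lower in mutants. Tek minus that mean was 1.52, 1.54, 1.44 and 1.38 in mutants 1 to 4, against 2.21, 2.32, 2.72 and 2.53 in controls 1 to 4, with no overlap, a difference of -0.97 that was -0.89 without controls 2 and 3. Tek alone already separated the groups and that mean was higher in mutants, so the lack of overlap adds no support. Ptprb minus that mean was -0.17, 0.26, -0.17 and -0.48 in mutants, against 0.23, 0.66, 1.20 and 0.60 in controls, where mutant 2 overlapped control 1. Differences of this kind take the array's own endothelial signal as the base, and the share of endothelial cells in a pool was not measured.

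**Figure D4:**
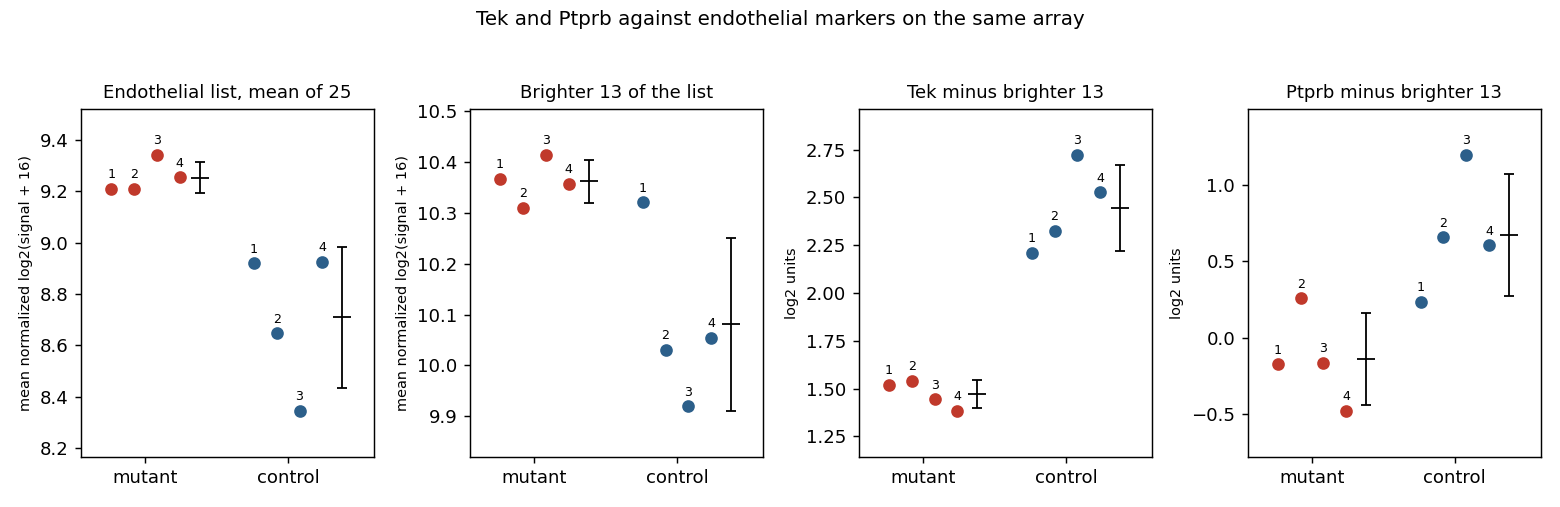
From left, the mean normalized log2 value of 25 endothelial genes, that of the brighter 13, and the log2 value of Tek and of Ptprb minus the brighter 13, on each array, mutants in red on the left and controls in blue on the right. Black bars are mean and SD over 4 arrays. Tek minus the brighter 13 lies at 1.38 to 1.54 on mutant arrays and 2.21 to 2.72 on control arrays. Tek alone already separated the groups.

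In the fit reported, no gene of the signalling branch below the receptor was called. Of this branch 1 gene was called higher without control 1, 5 without controls 1 and 4, and 15 with median-centred arrays. Over all tested probe sets those fits called 1416, 4197 and 17318 higher. A list of 20 adaptors and PI3K-AKT genes that act downstream of Tie2 had 16 tested, of which 9 had positive and 7 negative changes, with a median of 0.02 and 0 called (1 lower and 0 higher at an unadjusted p under 0.05). Ptpn11, the phosphatase Shp2, had a change of -0.14 (SE 0.06, adjusted p = 0.381). The regulatory PI3K subunit Pik3r1 had a change of -0.23 (SE 0.14, adjusted p = 0.491). Foxo1, a transcription factor that AKT keeps out of the nucleus and that is known to activate Angpt2, had a change of -0.28 (SE 0.20, adjusted p = 0.569). With median-centred arrays these 3 changes were above 0. A second probe set of Pik3r1 had a change of 0.08 (SE 0.19, adjusted p = 0.886), opposite in sign. The endothelial nitric oxide synthase Nos3 was above background on 4 mutant arrays and 1 control array, and no size is given.

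Other partners of the Tie receptors, of angiopoietins or of VE-PTP did not pass in the fit reported either. Among these partners 1 was called lower without control 4, and 1 higher and 2 lower without controls 1 and 4. With median-centred arrays 14 were called higher. Over all tested probe sets 371 were lower without control 4, and 4197 higher and 2278 lower without controls 1 and 4. Median centring called 17318 higher. In the fit reported, of 16 tested genes, 9 had positive and 7 negative changes. Their median was 0.07 and 0 were called (1 higher and 1 lower at an unadjusted p under 0.05). Those of smallest p were the semaphorin and VEGF coreceptor Nrp1 (0.22, SE 0.07, adjusted p = 0.252), Svep1 and Kdr. A second Nrp1 probe set, 1 of 4, had a change of -0.09 (SE 0.09, adjusted p = 0.696). Svep1, an extracellular protein known as a ligand of Tie1, was above background on only 2 arrays of each group, with 6.05 ± 0.77 in mutants and 6.77 ± 0.70 in controls (SD, n = 4 each; change -1.32, SE 0.55, adjusted p = 0.355). Its change was -0.72 without array weights.

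Among 19 vascular transcription factors, all tested, 9 had positive and 10 negative changes, with a median of -0.002, and 1 was called. Epas1, a hypoxia-inducible factor prominent in endothelium, was called higher with a change of 1.20 (SE 0.17, adjusted p = 0.0141), at 10.66 ± 0.35 in mutants against 9.37 ± 0.30 in controls (SD, n = 4 each). The call was lost without controls 2 and 3 (1.13, adjusted p = 0.126). It was also lost with the 3 prime to 5 prime ratio as a covariate (0.99, adjusted p = 0.0694). That ratio is the mean log2 ratio of 3 prime to 5 prime signal over the actin and Gapdh control probe sets of an array. The forkhead factor Foxc2 had a change of -0.61 (SE 0.11, adjusted p = 0.0638; 1.05 with median-centred arrays) and Gata2 one of 0.66 (SE 0.15, adjusted p = 0.153), neither past the threshold. The flow-responsive factor Klf2 had a change of 0.22 (SE 0.29, adjusted p = 0.774), and by -0.15 on the authors' scaling. Foxc2, which also stands in the mesenchyme list below, was called lower in 9 of 19 alternatives. These were -0.58, -0.67 and -0.66 without control 1, 3 or 4, -0.64 and -0.65 without mutant 2 or 3, -0.63 without controls 1 and 4, -0.60 with a pseudocount of 64, -0.61 without the filter and -0.63 with the replicate block. This Gata2 probe set was called higher in 5, at 1.11 and 1.02 without control 1 or 4, 1.14 without both, 0.70 on the authors' scaling and 2.63 with median-centred arrays. Over all tested probe sets those 5 fits called 1416, 1291, 4197, 41 and 17318 higher. A second Gata2 probe set, above background on all 8 arrays, had a change of 0.03 (SE 0.20, adjusted p = 0.967), so the probe sets of Gata2 disagreed.

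Markers of other cell types that the pools could hold had median changes of both signs, with 0 called in each list. At an unadjusted p under 0.05, 7 mesenchyme genes were lower and 1 higher, 10 cardiomyocyte genes and 8 epicardial genes were higher with 0 lower, 1 blood gene was lower, and 0 pericyte genes passed. Over all tested probe sets 7.3% were higher and 5.34% lower at that level. The mesenchyme list had 5 genes called lower without mutant 3, 3 without control 1, 3 or 4, 3 without the filter or with a pseudocount of 64, 2 without array weights, and 1 without mutant 2 or on the authors' scaling. It also had 1 called higher without control 1 or 4, as had the pericyte list. The epicardial list had 3 called higher without control 1, and 1 without control 3 or 4 or on the authors' scaling. The cardiomyocyte list had 1 called higher without control 3. Without controls 1 and 4, 6 mesenchyme genes were called lower and 2 higher, and 5 epicardial and 5 cardiomyocyte genes higher. There 2 pericyte genes were also called higher, and 1 blood gene each way. Over all tested probe sets that fit called 4197 higher and 2278 lower. Without controls 2 and 3 these lists had 0 called. With median-centred arrays 9 mesenchyme, 11 epicardial, 18 cardiomyocyte and 8 pericyte genes were called higher, and 5 blood genes higher and 2 lower. Median centring called 17318 of all tested probe sets higher and 1833 lower. Median changes in the fit reported were -0.35 over 16 cushion mesenchyme genes (12 negative) and -0.18 over 13 blood and macrophage genes (10 negative). They were 0.12 over 18 cardiomyocyte genes, of which 17 were positive, 0.56 over 11 epicardial genes, all positive, and 0.13 over 9 pericyte and smooth muscle genes, of which 7 were positive. The summed deposited signal of the cardiomyocyte list was 187377 to 210381 on mutant arrays and 150564 to 180660 on control arrays. That of the mesenchyme list was 47711 to 55755 on mutant arrays and 54144 to 62426 on control arrays. That of the epicardial list was 8666 to 14452 on mutant arrays and 7821 to 9025 on control arrays. The summed signal of the blood list was 39638 to 49707 on mutant arrays and 33942 to 52806 on control arrays. The part of these shifts in the Tek and Ptprb values was not tested.

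The genes most like Tek in pattern were sought among 7754 genes whose brightest probe set was above background on all 8 arrays. By Pearson r over the 8 arrays the highest were the heparan sulfate sulfatase Sulf1 (0.96), the histone demethylase Phf8 (0.95), the TFIID subunit Taf2 (0.94), Paip1 (0.94) and Zfp292 (0.94), all of which share the group difference with Tek. After each group's mean was subtracted they were Gsk3b (0.98), Sucla2 (0.97), Cdk17 (0.97), Rfx7 (0.97) and Mrps9 (0.96). Sulf1 kept an r of 0.81 in that second measure and Taf2 one of 0.20. With 8 arrays and this many genes such values are descriptive.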

How the data were processed

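RNA of 4 mutant and 4 control pools was amplified and hybridised to Affymetrix mouse arrays. Per the submitters' processing notes the authors used MAS5, and the deposited table holds 1 linear intensity per probe set and array. Version, background step and detection calls are not given in the sources used here. The plain mean was 715 on every array. Gene symbols came from the platform annotation: 34958 probe sets had 1 symbol, 932 several and 9211 none, and the 5 members matched RefSeq by Entrez ID.

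From these, 64 control probe sets of the array were dropped and log2(signal + 16) was quantile normalized. The dimmest 40% by mean were dropped after that. Mutants and controls were compared with limma 3.58.1 in R 4.3.3 (arrayWeights, eBayes with trend and robust, two-sided, Benjamini-Hochberg over 27023 probe sets). The log2 change is the weighted fit of the deposited intensities, so it can depart from the difference of plain means. The number of arrays limits the precision, and nothing says that pools came from separate litters, so p values measure the spread between these pools. On simulated arrays with 200 changed probe sets the fit recovered 5.5% of changes of 0.5, 33.5% of changes of 1 and 65.5% of changes of 2, on the log2 scale. False calls numbered 0, 3 and 6. The simulated noise was independent between probe sets, so these rates do not cover shifts shared across an array.

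The members, lists and rules were chosen with earlier results of these data known. The rule for named genes took every member probe set, Gata4, the 3 genes of smallest p in each list that were above background on 2 arrays of each group, a fixed set (Cdh5, Pecam1, Kdr, Flt1, Foxo1, Klf2, Nos3, Svep1, Epas1) and the 5 genes most like Tek by each measure. Lists of cell types other than endothelium are given by counts, median changes and, for most, summed signals, rather than gene by gene. No pairing by replicate number was seen: same-numbered arrays had correlations of -0.11, 0.01, -0.13 and 0.17 in their deviations from group means. Differently numbered arrays had -0.29 to 0.23, so these values cannot exclude a pairing. No 2 columns were identical. Alternatives were the authors' scaling, median centring, pseudocounts of 1 and 64, no filter, no array weights, and controls 2 and 3 left out. Further ones were the 3 prime to 5 prime ratio as a covariate, a replicate block, and each array left out.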

Additional observations from a re-analysis of the deposited data

Results flagged for a closer look

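One of the 52 groups of 4 arrays examined held a value far from the rest, and at this level chance gives about 1 in 20. The Shp2 gene Ptpn11 had a log2 value of 13.08 on mutant 2, against 12.87 to 12.90 on the other mutant arrays, a gap of 0.86 of the group's whole range. None of the 9 member probe sets had such a value in either group.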

How the results depend on the processing

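Against 7 probe sets higher and 5 lower as reported, the counts were 41 and 22 on the authors' scaling, which moved the median of all changes to -0.10. They were 17318 and 1833 with median-centred arrays, 22 and 12 with a pseudocount of 64, and 14 and 12 without the filter. With the 3 prime to 5 prime ratio as a covariate they were 2 and 2. Without array weights 10 were lower. Without controls 2 and 3 the counts were 1 and 1, with or without array weights, and without controls 1 and 4 they were 4197 and 2278. Leaving out 1 array gave 3 to 1416 higher and 2 to 371 lower, with the highest counts without control 1 (1416 and 262) or control 4 (1291 and 371), so the number of calls rests on those arrays. The cause of these shifts was not tested.

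Over the arrays left out in turn the Tek change was -0.74 to -0.67, Tie1 1.03 to 2.10, Angpt1 -0.35 to 0.33 and Ptprb -0.73 to -0.37. Without controls 1 and 4 they were 2.49 for Tie1, 0.11 for Angpt1 and -0.67 for Ptprb. With median-centred arrays the changes were 0.97 for Tek, 2.52 for Tie1, 1.51 for Angpt1, 0.76 and 0.20 for the 2 brighter Ptprb probe sets, 1.61 for Ptpn11, 1.09 for Pik3r1, 0.62 for Foxo1, 1.05 for Foxc2, 1.34 for Cd93 and 1.43 for Gata4, against a median of 1.13 over all probe sets. The dimmest Ptprb probe set had -0.53 on the authors' scaling, -0.057 and -0.022 without controls 2 and 3 (without and with array weights), and -0.12 (without mutant 4) to 0.26 with 1 array left out. Angpt1 had 0.33, 0.10 and 0.05 without control 1, control 4 or mutant 3. Cdh5 had 0.064 and 0.16 without controls 2 and 3, and -0.98 to 0.044 with 1 array left out. Klf2 had -0.15 on the authors' scaling, -0.050 with the covariate, and -0.082 to 0.89 with 1 array left out.

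With the replicate number as a block, 23 probe sets were higher and 34 lower, 6 genes of the mesenchyme list were called lower, and the changes were -0.72 for Tek, 1.21 for Tie1, 0.019 for Angpt1 and -0.57 for Ptprb. No pairing by these numbers was seen, and none can be excluded. Angpt2 had too few control arrays above background for a change under any setting. The fits without controls 1 and 4, and without controls 2 and 3 with weights kept, and the brighter part of the endothelial list were chosen after seeing the data.

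Of the 9 member probe sets 4 were above background on all 8 arrays, and the others were above it on fewer.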
